A study of Mus musculus with 60 samples.

Results

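The genes described here are the nuclear genes of oxidative phosphorylation, the 66 of 10122 genes in the table whose symbols start with Nduf, Uqcr, Cox followed by a digit from 4 to 8, or Atp5, or are Sdha, Sdhb, Sdhc or Sdhd. Symbols marked as pseudogenes were to be left out, and 0 were present. The rule selects by name and not by measured values, though it was chosen with earlier results of these data known. By role, 4 genes encode core subunits of complex I, 21 its accessory subunits and 6 its assembly factors. Complex II is represented by 4 genes, complex III by 8 and complex IV by 10, the last including Ndufa4, which was first assigned to complex I. ATP synthase is represented by 5 genes of its catalytic F1 head and 8 of its stalk and membrane part. The GENCODE M21 annotation holds 93 protein-coding symbols that follow the rule, so further family members, among them Cox4i2, Cox6b2, Cox8a, Cox7a2l, Ndufa4l2 and the inhibitor Atp5if1, were not analysed here.

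Complexes I to IV form the respiratory chain of the inner mitochondrial membrane. Complexes I and II pass electrons from NADH and succinate to ubiquinone, complex III passes them on to cytochrome c, and complex IV delivers them to oxygen. Complexes I, III and IV pump protons, and ATP synthase lets the protons flow back to make ATP. Most subunits are encoded in the nucleus, translated in the cytosol and imported, while a small set, including the catalytic centres of complexes III and IV, is encoded by mitochondrial DNA. The nuclear factors NRF1, GABP and YY1 are known to bind the promoters of many of these genes.

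The cells are a line of mouse ear fibroblasts from adult knock-in animals, immortalised by serial passage, which carries fluorescent reporters of the endogenous RelA and c-Rel proteins. This line, named as carrying GR NLS-iRFP-NLS, is shared by every group, and the replicates are labelled as independent biological replicates. After a night at 37 °C, dishes were kept at 24, 34, 37 or 40 °C for 2 h and lysed (unstimulated), or were then stimulated with 10 ng/mL of either TNF-α or IL-1β, for a further 1 or 3 h, making 3 or 5 h at temperature. That makes 20 groups of 3 libraries, with 3 unstimulated and 12 stimulated libraries at each temperature. Of 8 listed fibroblast markers 6 were in the table, and Lum and Dcn were not. Col1a1 (843 to 1732 FPKM) and Vim (1913 to 2929 FPKM) were high in all 60 libraries, and Pdgfrb ran from 36.3 to 103 FPKM. Of the markers of other cells, Acta1 reached 7.50 FPKM at most, Krt10 4.13, Lyz2 4.60, Cd68 2.93 and Vwf 2.50. Estimated depth was 4.58 ± 0.51 M fragments at 24 °C (mean ± SD, n = 15), 6.69 ± 0.597 at 34 °C, 6.34 ± 0.548 at 37 °C and 6.39 ± 0.762 at 40 °C, so values at 24 °C rest on the fewest reads. Libraries of 24 °C are numbered 46 to 60 and all others 1 to 45. A separate preparation of the former, if there was one, and the temperature cannot be told apart. In RNA from whole dishes, a fall through fewer cells of a type and one through less RNA per cell cannot be told apart either.

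The promoters of 5 members are shown because the first 4 include the clearest rises at 24 °C described below and the last, Ndufb6, went the other way. Each runs from 250 bases before to 50 bases after the RefSeq start site, is written 5′ to 3′ along the gene's strand, and carries coordinates of GRCm38.p6. Capitals mark letters searched for on both strands: GCATGCGC (the core of the NRF1 site), CCGGAAG (ETS family, which includes GABP) and AAGATGGC (YY1). Overlapping matches run together.
Ndufb7, chr8:83566508-83566807, plus strand: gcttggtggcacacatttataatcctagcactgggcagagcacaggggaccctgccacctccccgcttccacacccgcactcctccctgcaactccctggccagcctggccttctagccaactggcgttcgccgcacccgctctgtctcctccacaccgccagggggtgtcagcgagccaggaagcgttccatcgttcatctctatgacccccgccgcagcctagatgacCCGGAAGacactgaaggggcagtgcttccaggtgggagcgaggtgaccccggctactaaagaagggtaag
Atp5j2, chr5:145191492-145191791, minus strand: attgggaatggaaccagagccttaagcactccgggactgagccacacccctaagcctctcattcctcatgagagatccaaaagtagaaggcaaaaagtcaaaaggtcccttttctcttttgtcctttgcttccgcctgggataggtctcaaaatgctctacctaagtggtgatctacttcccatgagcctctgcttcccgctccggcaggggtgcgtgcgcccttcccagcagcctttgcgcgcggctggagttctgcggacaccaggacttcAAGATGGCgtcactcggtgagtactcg
Ndufc2, chr7:97399753-97400052, plus strand: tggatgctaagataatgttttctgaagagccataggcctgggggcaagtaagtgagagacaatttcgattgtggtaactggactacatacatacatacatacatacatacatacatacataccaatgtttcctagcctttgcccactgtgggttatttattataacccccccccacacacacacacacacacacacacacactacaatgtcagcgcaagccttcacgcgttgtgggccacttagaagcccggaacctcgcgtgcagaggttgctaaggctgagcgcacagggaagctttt
Uqcr11, chr10:80406772-80407071, minus strand: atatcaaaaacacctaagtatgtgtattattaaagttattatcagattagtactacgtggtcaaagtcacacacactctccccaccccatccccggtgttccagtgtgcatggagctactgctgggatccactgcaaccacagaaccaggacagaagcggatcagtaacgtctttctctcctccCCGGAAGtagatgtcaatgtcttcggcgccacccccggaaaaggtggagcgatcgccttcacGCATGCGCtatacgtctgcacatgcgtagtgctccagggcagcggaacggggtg
Ndufb6, chr4:40279372-40279671, minus strand: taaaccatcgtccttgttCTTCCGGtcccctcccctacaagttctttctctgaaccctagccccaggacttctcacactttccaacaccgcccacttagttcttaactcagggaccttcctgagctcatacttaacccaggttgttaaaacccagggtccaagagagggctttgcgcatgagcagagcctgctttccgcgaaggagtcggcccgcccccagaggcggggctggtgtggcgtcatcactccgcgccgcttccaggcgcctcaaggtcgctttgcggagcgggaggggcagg
The Uqcr11 window holds an NRF1 core and an ETS match, Ndufb7 and Ndufb6 an ETS match each, Atp5j2 a YY1 match, and Ndufc2 none of these 3. RefSeq windows were matched for 55 of 66 members and 7325 genes of the table. The NRF1 core was found in 10 member windows (18.2%, against 5.68% of all 7325), YY1 letters in 8 (14.5% against 5.15%) and ETS letters in 15 (27.3% against 19.4%). CCAAT, the NF-Y box, stood in 25 (45.5% against 39.4%). These are matches of letters, not measured binding, and genes that rose and Ndufb6, which fell, both carry ETS letters.

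Levels are given in FPKM, which is corrected for transcript length, so genes can be compared. Over 60 libraries the members spanned a wide range. Atp5b, the catalytic beta subunit of ATP synthase, stood highest at a mean of 707 FPKM (606 to 868). Cox7c, a small subunit of complex IV, followed at 370 FPKM (280 to 442), close to Cox4i1, the general isoform of another complex IV subunit, at 365 FPKM (318 to 410). Within the other complexes, Ndufb8 led complex I at 128 FPKM (101 to 177), Uqcrq complex III at 150 FPKM (127 to 178) and Sdhc, a membrane anchor, complex II at 53.1 FPKM (42.8 to 67.5). The lowest of complex II was its iron-sulfur subunit Sdhb at 27.6 FPKM (20.7 to 36.1). Assembly factors, which help to build complex I and are not part of it, were low throughout, from Ndufaf6 at 2.87 FPKM (0.96 to 6.19) to Ndufaf4 at 10.6 FPKM (4.71 to 16.2).

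Some isoform genes of a subunit stood far apart. Cox6a1, the widely expressed form, had a mean of 171 FPKM, while Cox6a2, the form of heart and skeletal muscle, had 0.856 FPKM and was listed at 0 in 9 libraries. Cox7a2 stood at 146 FPKM and its muscle counterpart Cox7a1 at 0.308 FPKM, with 44 of 60 libraries at 0. The genes Atp5g1, Atp5g2 and Atp5g3 encode the same mature subunit c of the ATP synthase ring, and stood at 128, 327 and 205 FPKM. Atp5k (subunit e) and Ndufa13 were low for their complexes, at 2.75 FPKM (0 to 11.5) and 3.91 FPKM (1.61 to 7.78). Members of these families have many pseudogene copies in mammalian genomes, reads that match several copies may have been split among them, and such levels are uncertain; how the counting treated such reads is not given in the sources used here.

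At 24 °C the fibroblasts held more mRNA for many of these genes than at 37 °C, in unstimulated and in stimulated cells, on the deposited scale; with libraries rescaled to equal totals most of these rises were no longer called, as set out below. The largest rise in each comparison was that of an accessory subunit of complex I, Ndufa5 in unstimulated and Ndufb7 in stimulated cells. Summed over the 66 genes, unstimulated cells at 24 °C held 7576, 7247 and 7239 FPKM, against 6346, 6216 and 6096 FPKM at 37 °C. The 12 stimulated libraries ranged from 6734 to 7453 FPKM (median 7221) at 24 °C and from 5806 to 6528 FPKM (median 6255) at 37 °C. Neither pair of ranges overlapped on the deposited scale. As a share of the table total the order turned in unstimulated cells, from 0.861 to 0.876% at 24 °C against 0.907 to 0.928% at 37 °C. In stimulated cells the shares overlapped, from 0.867 to 0.936% against 0.8434 to 0.9202%.

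In unstimulated cells after 2 h, 23 of 66 members were called higher at 24 °C and 0 lower (limma, Benjamini-Hochberg adjusted p below 0.05 over 10122 genes). The background was 20.7% of all genes called, 9.44% higher and 11.3% lower; among members the share called was 34.8%. With libraries rescaled to equal totals, 3 members were called higher and 11 lower. That scale moved the median of all genes down as well, as set out below, and the members' median lay 0.19 above it. Many more genes of the whole table were called on that scale too, as given in the closing section. On the deposited scale the count of 23 fell to 15 without unstimulated replicate 3 at 37 °C and to 12 when only the groups compared were fitted. The median log2 change was 0.19 over members and -0.033 over all genes on the deposited scale. In stimulated cells after 3 or 5 h, 42 members were called higher and 5 lower (71.2% called). There the background was 52.3% of all genes called, 25.3% higher and 27% lower, and equal totals gave 17 members higher and 14 lower. With equal totals the members' median again lay 0.19 above that of all genes. The share of all genes called on that scale is not given here. On the deposited scale the median log2 change was 0.21 over members and -0.0056 over all genes.

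The 2 comparisons use different libraries. All 23 members called in unstimulated cells were called with the same sign in stimulated cells. The matching share of all genes was not counted, and 52.3% of all genes were called in stimulated cells, so this overlap is not shown to be particular to members. The sign of the log2 change was shared by 55 of 66 members, against 74.2% of all genes. In unstimulated cells, 28 members were higher in every 24 °C library than in every 37 °C library (background 14.8%) and 0 were lower in every library (background 17.9%). Among stimulated cells, where 12 libraries face 12, 6 members stood higher in every library (background 4.1%), namely Atp5g3, Ndufs7, Uqcr11, Ndufc2, Ndufb7 and Atp5j2, and 0 lower (background 3.88%). The change at 24 °C was tested for a difference between stimulated and unstimulated cells, and 0 members were called in limma (background 3.27%), with 1 at an unadjusted p below 0.05.

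**Figure D1:**
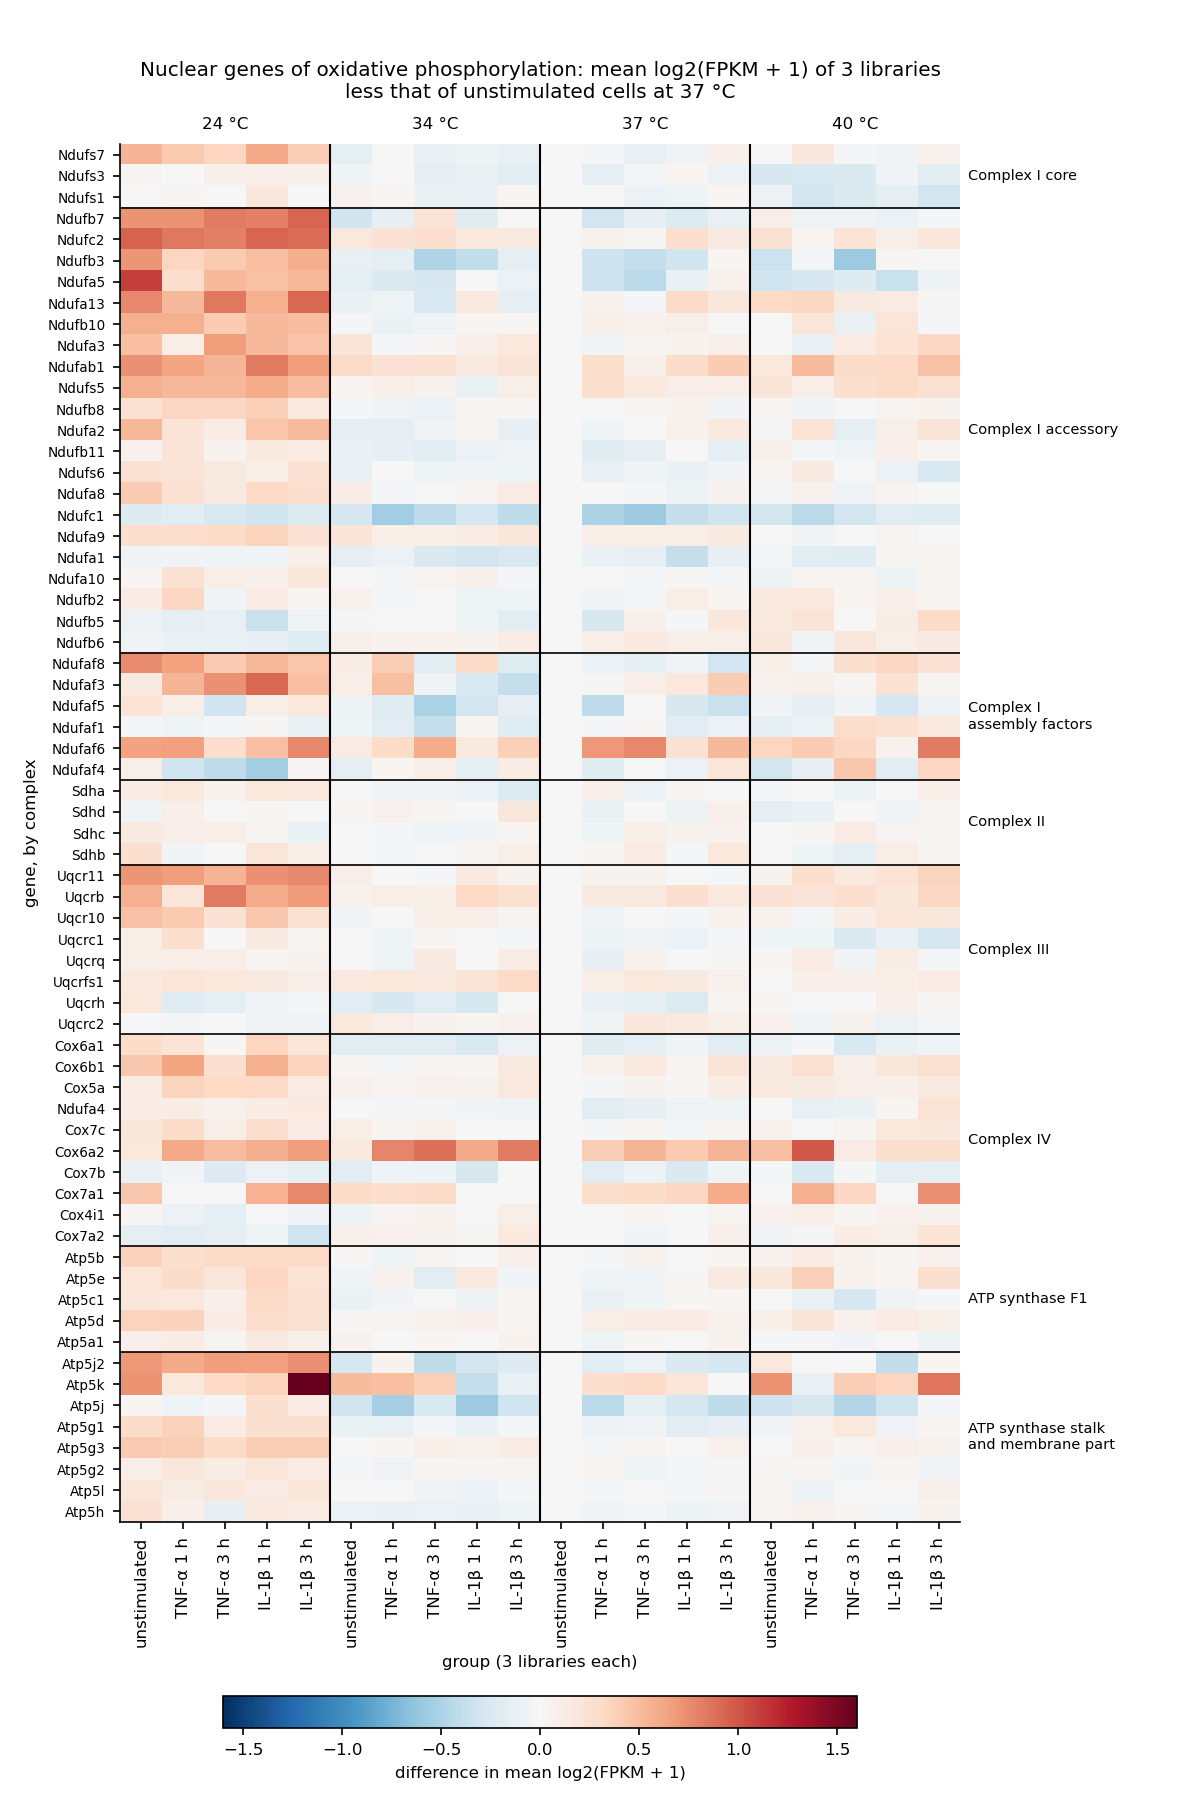
Heat map of the genes, all but 1 of the 66 (rows, grouped by complex and ordered by their change in stimulated cells at 24 °C) over 20 groups (columns). Colour is the mean log2(FPKM + 1) of 3 libraries less that of unstimulated cells at 37 °C, on the deposited scale. The 5 columns of 24 °C are red for most genes on this scale. With equal totals, not drawn here, only 25 of the 66 members were above 0 in unstimulated cells against 37 °C. In stimulated cells 35 were, there against stimulated cells at 37 °C. Cox7a1, Cox6a2 and Atp5k, which are near 0 FPKM, vary without pattern.

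Complex I accessory subunits surround the catalytic core and stabilise it. Of 21, 11 were called higher at 24 °C in unstimulated cells and 16 higher and 1 lower in stimulated cells, with median log2 changes of 0.41 and 0.29. Ndufc2, a subunit of the membrane arm, stood at 52.1, 55.6 and 60.6 FPKM in unstimulated cells at 24 °C against 23.9, 34.3 and 28.6 FPKM at 37 °C. Its stimulated libraries ran from 46.1 to 59.5 FPKM (median 53.8) at 24 °C and from 27.2 to 40.4 FPKM (median 30.8) at 37 °C. No library of 24 °C overlapped those of 37 °C. The log2 change was 0.94 (SE 0.134, adjusted p = 7.99e-07 in limma) in unstimulated and 0.75 (SE 0.0669, adjusted p = 5.29e-13) in stimulated cells, and with equal totals it was 0.63 and 0.56, still called.

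Ndufb7, a subunit on the intermembrane-space side, stood at 19.5, 18.6 and 22.6 FPKM in unstimulated cells at 24 °C and at 10.2, 13.0 and 12.8 FPKM at 37 °C. In stimulated cells it ran from 17.3 to 25.9 FPKM (median 22.5) against 7.72 to 13.9 FPKM (median 9.89). It was the largest rise of any member in stimulated cells, 2.03-fold on the log2(FPKM + 1) scale (log2 1.02, SE 0.111, adjusted p = 1.39e-10 in limma). The unstimulated change of 0.71 (adjusted p = 0.0179) rested on few libraries: without unstimulated replicate 1 at 37 °C or replicate 3 at 24 °C it was no longer called, and the largest adjusted p was 0.0854.

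Ndufa5 showed the largest unstimulated rise. Its level was 15.6, 27.4 and 22.9 FPKM at 24 °C against 9.89, 9.14 and 9.20 FPKM at 37 °C (log2 1.11, SE 0.289, adjusted p = 0.00456 in limma). In stimulated cells the rise was 0.65 on the log2 scale, from a median of 8.78 to 12.4 FPKM. The difference between these rises was not called.

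Ndufab1, the acyl carrier protein of mitochondria, stood at 49.1, 74.6 and 83.8 FPKM against 38.7, 42.4 and 39.6 FPKM in unstimulated cells (log2 0.73, adjusted p = 0.00451 in limma). Ndufb3 stood at 14.3, 14.1 and 20.0 FPKM against 9.71, 9.56 and 8.85 FPKM in unstimulated cells. Its log2 change was 0.71 there and 0.70 (SE 0.0833, adjusted p = 1.09e-09) in stimulated cells. Ndufa13, also known as GRIM-19, stood at 5.00, 6.08 and 6.46 FPKM against 2.57, 2.86 and 3.70 FPKM. Its unstimulated change of 0.76 (adjusted p = 0.0142) was lost on leaving out the same pair of libraries as for Ndufb7, with a largest adjusted p of 0.0644. With equal totals the unstimulated changes of Ndufa13, Ndufab1, Ndufb3 and Ndufb7 kept their sign and were not called.

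Core subunits of complex I carry its flavin, iron-sulfur clusters and ubiquinone site. Of 4 measured, Ndufs7, which holds the iron-sulfur cluster nearest to ubiquinone, was called higher in unstimulated (log2 0.55, adjusted p = 0.000325) and stimulated cells (0.47, adjusted p = 1.72e-09, limma). Equal totals gave 0.23 for Ndufs7 in unstimulated cells, not called, and 0.28 in stimulated cells, still called. The values of Ndufs1 and Ndufs3 were 0.08 and 0.13 in stimulated cells and were not called. Among 6 assembly factors, 3 were called higher and 1 lower in stimulated cells and 0 in unstimulated cells, where the largest log2 values were 0.76 for Ndufaf8 (adjusted p = 0.055) and 0.64 for Ndufaf6 (adjusted p = 0.126). Ndufaf8 ran from 6.01 to 11.1 FPKM (median 7.98) in stimulated cells at 24 °C and from 3.09 to 7.04 FPKM (median 4.76) at 37 °C, a log2 change of 0.66 (SE 0.145, adjusted p = 0.000161).

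Of the 4 complex II genes, Sdha, the flavin-carrying subunit, was called higher in stimulated cells with a log2 change of 0.14 (adjusted p = 0.0162 in limma), though with equal totals it was at -0.05, and 0 were called in unstimulated cells. With equal totals Sdhb (-0.20), Sdhc (-0.18) and Sdhd (-0.13) were called lower in stimulated cells, and Sdhd (-0.35) in unstimulated cells. The median of all genes was negative by a similar amount on that scale, as given below, so these values are not particular to complex II. Sdhd, a membrane anchor, stood at 48.3, 54.7 and 45.9 FPKM in unstimulated cells at 24 °C and at 51.8, 48.3 and 52.7 FPKM at 37 °C. The 95% interval of its stimulated log2 change ran from -0.020 to 0.14. Over the 4 genes the median log2 change was 0.13 in unstimulated and 0.031 in stimulated cells.

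Of 8 complex III genes, 3 were called higher in unstimulated cells and 4 higher and 1 lower in stimulated cells. Uqcr11, the smallest subunit, stood at 167, 194 and 207 FPKM in unstimulated cells at 24 °C and at 109, 112 and 125 FPKM at 37 °C. Stimulated libraries ran from 145 to 211 FPKM (median 188) against 99.6 to 132 FPKM (median 121). The groups did not overlap in either comparison, and the log2 changes were 0.71 (SE 0.118, adjusted p = 1.45e-05) and 0.65 (SE 0.0588, adjusted p = 5.86e-13, limma). With equal totals they were 0.39 and 0.46, still called. On the deposited scale Uqcrb and Uqcr10 were called higher in both comparisons, at 0.57 and 0.47 in unstimulated and 0.40 and 0.33 in stimulated cells. Uqcrb was at 0.26 and 0.21 with equal totals and was called in neither comparison. Uqcr10 was then at 0.16 in unstimulated cells, not called, and at 0.14 in stimulated cells, still called. Uqcrfs1, the Rieske iron-sulfur protein, and Uqcrh, the hinge protein, were at 0.03 and 0.01 in stimulated cells and were not called. Of the paired core proteins, Uqcrc1 was called higher in stimulated cells at 0.18 (-0.01 with equal totals) and Uqcrc2 lower at -0.13 (adjusted p = 0.0475). The latter lost its call on leaving out any of 16 of 24 libraries, each in turn.

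Of 10 complex IV genes, 2 were called higher in unstimulated cells (Cox6b1 at 0.43, Cox6a1 at 0.30) and 5 higher and 2 lower in stimulated cells. Neither Cox6b1 (0.11) nor Cox6a1 (-0.02) was called in unstimulated cells with equal totals. Cox6b1, which faces the intermembrane space, ran from 281.4 to 449.9 FPKM (median 323) in stimulated cells at 24 °C and from 208 to 302 FPKM (median 262) at 37 °C. These ranges overlap, and the log2 change was 0.33 (adjusted p = 1.81e-06 in limma). Cox4i1 and Cox7a2 were lower in stimulated cells. Cox7a2 ran from 103 to 169 FPKM (median 130) at 24 °C and from 136 to 171 FPKM (median 148) at 37 °C, with a log2 change of -0.19 (SE 0.0617, adjusted p = 0.0103). Cox4i1 ran from 318 to 409 FPKM (median 338) against 332 to 387 FPKM (median 366), with a log2 change of -0.09 (SE 0.034, adjusted p = 0.0197). The Cox4i1 call was lost without IL-1β 1 h replicate 1 at 24 °C. In unstimulated cells Cox4i1 was at 0.02 and Cox7a2 at -0.15, and neither was called. With equal totals both were called lower there, at -0.30 and -0.47, as was Cox7b at -0.42. The median of all genes was negative there too, as given below.

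All 5 genes of the F1 head were called higher in stimulated cells and 2 in unstimulated cells, on the deposited scale. With equal totals Atp5b was at 0.04 in unstimulated and 0.08 in stimulated cells and was not called. Atp5a1, the alpha subunit, was then called lower at -0.24 and -0.10, though the median of all genes was lower still, as given below. Atp5b stood at 868, 853 and 813 FPKM in unstimulated cells at 24 °C, against 667, 678 and 625 FPKM at 37 °C (log2 0.36, SE 0.0731, adjusted p = 0.000258 in limma). Atp5d, the delta subunit, had an unstimulated log2 change of 0.36 too (adjusted p = 0.00098), which with equal totals was 0.04. Of 8 stalk and membrane genes, 4 were called higher in unstimulated and 7 in stimulated cells. Atp5j2 (subunit f) led, from a median of 7.48 FPKM (6.25 to 9.81) at 37 °C to 14.9 FPKM (10.1 to 20.6) at 24 °C in stimulated cells, without overlap (log2 0.86, SE 0.128, adjusted p = 2.14e-07), and its unstimulated change was 0.70 (adjusted p = 0.0458). Its values with equal totals were 0.68 in stimulated cells, still called, and 0.40 in unstimulated cells, not called. Of the subunit c genes, Atp5g3 and Atp5g1 were called higher in unstimulated (0.42 and 0.30) and stimulated cells (0.35 and 0.37). Equal totals gave 0.10 and -0.02 for Atp5g3 and Atp5g1 in unstimulated cells, not called, and 0.16 and 0.17 in stimulated cells, still called. Atp5g2, the most abundant, was called in stimulated cells (0.17, adjusted p = 3.22e-06; -0.02 with equal totals) and had a value of 0.11 in unstimulated cells (adjusted p = 0.196). Atp5k had log2 values of 0.72 and 0.41 but varied widely around a low level and was not called.

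**Figure D2:**
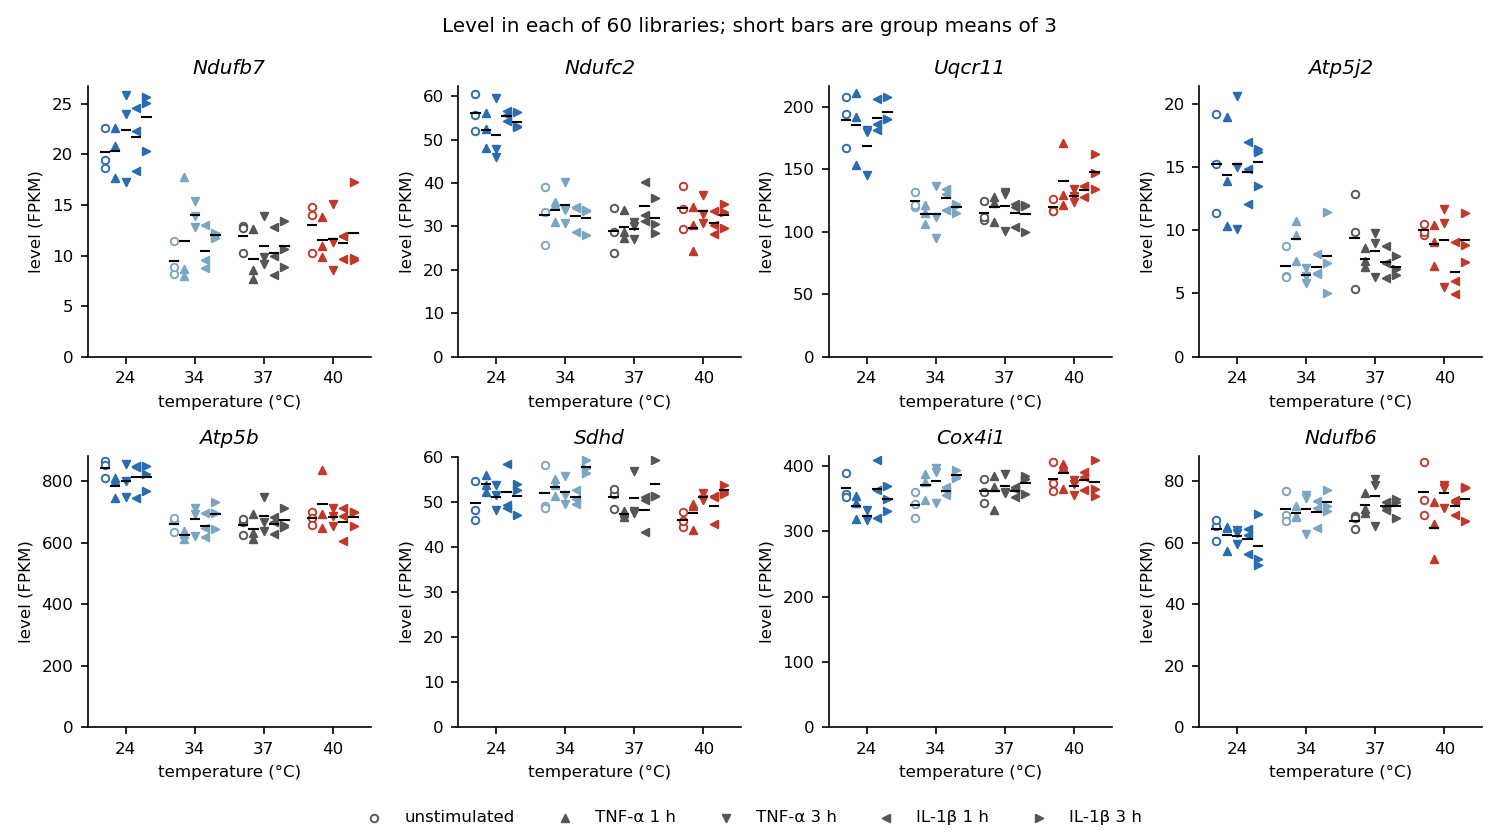
Level in FPKM (vertical axes, from 0) of 8 genes in each of the 60 libraries, by temperature (horizontal axes, °C) and treatment (symbols), with short bars at the means of 3 libraries. The 24 °C libraries of Ndufb7, Ndufc2 and Uqcr11 lie above all libraries of 37 °C on the deposited scale, and with equal totals their changes stay above 0. Those of Sdhd and Cox4i1 overlap, and Ndufb6 is lower at 24 °C in stimulated cells.

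The largest falls at 24 °C in stimulated cells belonged to Ndufaf4 and Ndufb6. Ndufb6, an accessory subunit of the membrane arm, ran from 52.8 to 69.5 FPKM (median 62.9) at 24 °C and from 65.6 to 80.7 FPKM (median 72.3) at 37 °C. Its log2 change was -0.25 (SE 0.0461, adjusted p = 1.4e-05 in limma), while unstimulated cells gave -0.06, not called. With equal totals it was called lower in both, at -0.44 in stimulated and -0.37 in unstimulated cells, where the median of all genes was also negative, as given below. Ndufaf4 ran from 4.71 to 12.9 FPKM (median 8.66) against 8.38 to 13.3 FPKM (median 10.7), with a log2 change of -0.29 (SE 0.0883, adjusted p = 0.00518). Ndufaf4 was no longer called after a correction for transcript length and GC content, where it was at -0.10.

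These counts depend on how libraries are scaled. The table total was larger at 24 °C (mean 813680 FPKM) than at 37 °C (699550 FPKM), and the short noncoding RNAs Rn7s1 and Rn7s2 made up 43.6% and 39.1% of it. Rescaling to equal totals moved the median log2 change of all genes from -0.033 to -0.30 in unstimulated and from -0.0056 to -0.16 in stimulated cells. Members moved with it. Their median lay above that of all genes by 0.23 and 0.22 on the deposited scale and by 0.19 and 0.19 with equal totals. Of the members called higher, 3 of 23 and 17 of 42 were still called higher with equal totals, and 0 and 1 were called lower instead. In unstimulated cells 20 of the 23 kept a positive sign, the exceptions being Atp5h, Atp5g1 and Cox6a1. In stimulated cells 32 of the 42 did, and Atp5a1, Atp5d, Atp5g2, Atp5h, Atp5l, Cox7c, Ndufa9, Ndufa10, Sdha and Uqcrc1 turned negative. With totals taken without Rn7s1, Rn7s2, Rn7sk, Rpph1 and Rmrp, 18 members were called higher and 0 lower in unstimulated cells and 37 higher and 6 lower in stimulated cells. With median-of-ratios scaling these were 28 and 0, and 42 and 5. The shares of all genes called under these scalings are not given here, so the counts are not shown to be particular to members.

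**Figure D3:**
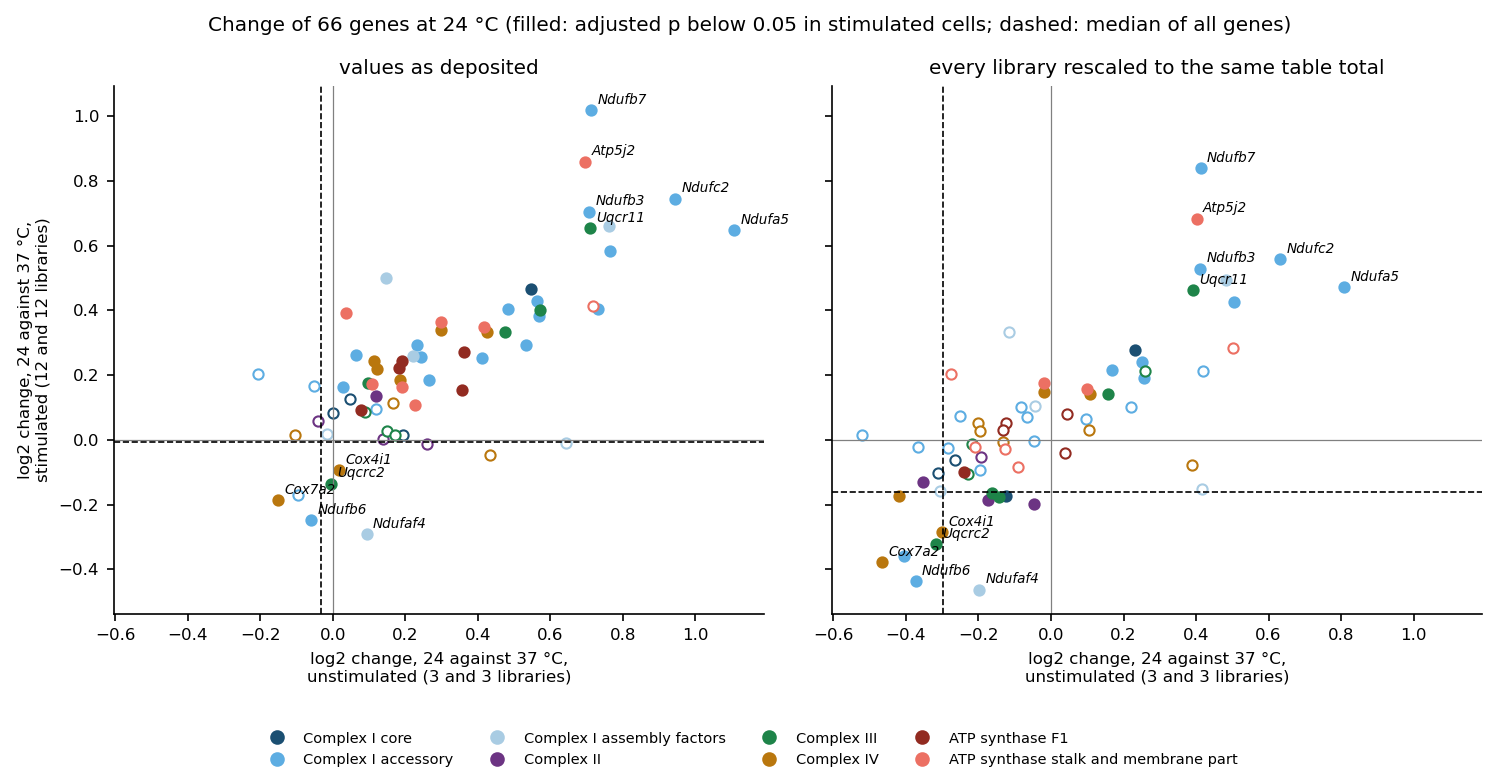
Log2 change at 24 against 37 °C in unstimulated (horizontal) and stimulated (vertical) cells for the 66 genes, coloured by complex, on the deposited scale (left) and with every library rescaled to the same table total (right). Filled points were called in stimulated cells and dashed lines mark the median of all 10122 genes. On the right all points and the medians shift down and left together, 11 members are called lower in unstimulated cells, and Ndufc2, Uqcr11 and Ndufb7 stay above 0.

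Transcript length moved with the result. The members' median transcript length was 682 bases (322 to 2676), against 2147 for protein-coding genes of the table, and genes with short or GC-rich transcripts were higher at 24 °C in general. Among other genes of at least 500 and under 1000 bases, the median log2 change in unstimulated cells was 0.032 and 14.3% were called higher, while 36 members of that length had a median of 0.23 and 16 were called higher. At 2000 to under 4000 bases, other genes had a median of -0.050 and 4 members 0.11. In stimulated cells, 27 of the 36 members from 500 to under 1000 bases were called higher, against 32.1% of other genes. By GC content, other genes went from -0.16 in the class with the least GC to 0.089 in that with the most in unstimulated cells, and members from 0.15 to 0.51. After a correction for length and GC together, 17 of the 23 unstimulated and 38 of the 47 stimulated calls were kept with the same sign.

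**Figure D4:**
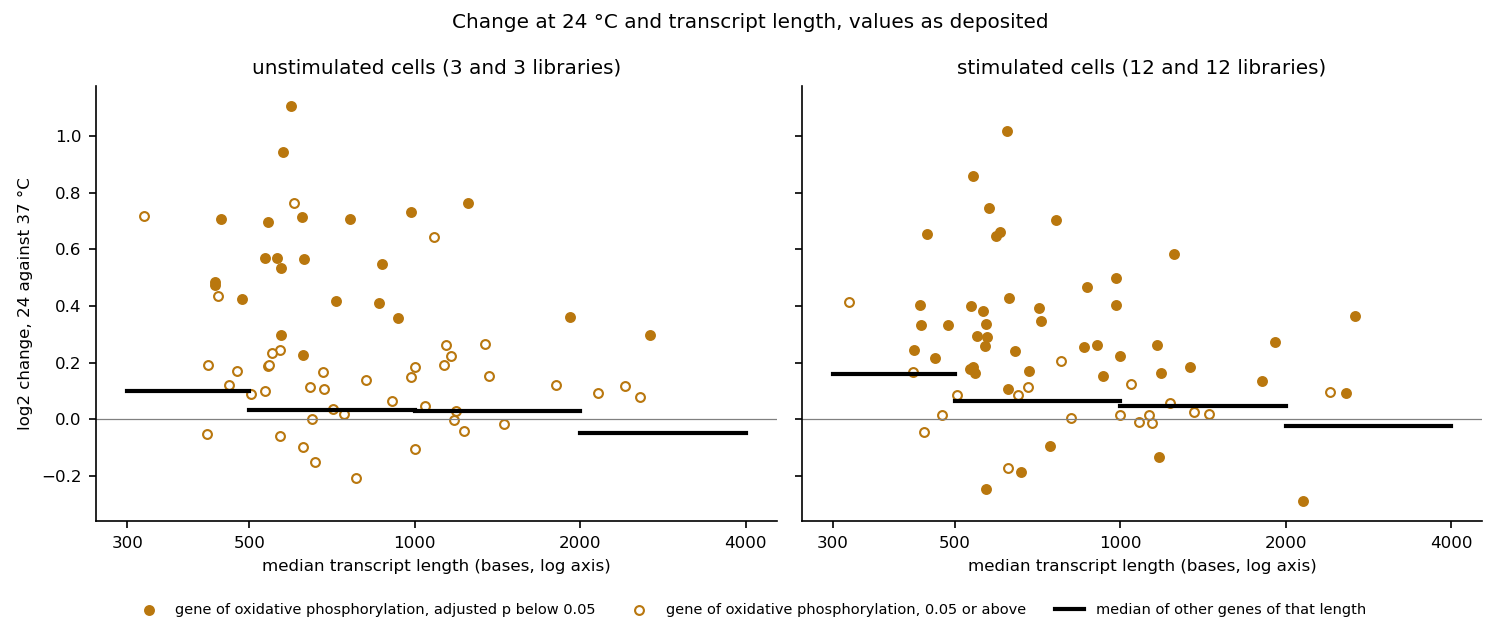
Log2 change at 24 against 37 °C (vertical) by median transcript length in bases (horizontal, log axis) for the 66 genes, in unstimulated (left) and stimulated (right) cells on the deposited scale. Filled points were called, and black bars are the medians of all other genes in each length class. Most members lie above the bar of their class, and the bars fall with length.

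Neighbouring parts of mitochondrial metabolism were counted beside these genes, all on the deposited scale. Over all genes, 9.44% were called higher and 11.3% lower in unstimulated cells, and 25.3% and 27% in stimulated cells. Counts in these short lists were not tested against those shares. Of 12 measured citrate cycle genes, 1 was called higher at 24 °C in unstimulated cells and 5 higher and 2 lower in stimulated cells, with medians of 0.054 and 0.040. Mdh2, mitochondrial malate dehydrogenase, was the call in unstimulated cells (0.30, adjusted p = 0.00331) and was at 0.30 in stimulated cells too. Of 33 assembly factors outside the naming rule, 4 were called higher in unstimulated cells and 9 higher and 6 lower in stimulated cells; Coa3, which helps to assemble complex IV, was at 0.50 and 0.64. Of 7 measured regulators, 0 were called in unstimulated cells, while in stimulated cells Polrmt, the mitochondrial RNA polymerase (0.46), and Nrf1 (0.25) were called higher and Gabpb1 (-0.37), Tfb2m (-0.26) and Yy1 (-0.21) lower. Of 6 measured carriers and channels, 2 were called higher in both comparisons, Slc25a4 (0.23 and 0.24) and Vdac1 (0.19 and 0.29), and 3 lower in stimulated cells. Cytochrome c (Cycs) was at 0.10 and 0.03 and was not called.

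The 13 mitochondrially encoded genes behaved unevenly at 24 °C. In stimulated cells 5 were called higher and 2 lower, from mt-Nd2 at 2.23 (adjusted p = 8.97e-15) to mt-Nd6 at -0.52 (adjusted p = 3.29e-05 in limma). Unstimulated cells had 3 called higher and 0 lower. The backgrounds were 25.3% higher and 27% lower in stimulated cells, and 9.44% and 11.3% in unstimulated cells. The catalytic subunit gene mt-Co1 was at 0.02 and was not called. Others varied widely between libraries, mt-Co3 from 0.19 to 2402 FPKM and mt-Atp6 from 0 to 722 FPKM.

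At 40 °C against 37 °C, 0 members were called in unstimulated cells by limma (background 4.14%), with 1 at an unadjusted p below 0.05. In stimulated cells 4 were called higher and 1 lower, against a background of 24.5% of all genes called (11.3% higher and 13.2% lower); the share among members was 7.58%. With equal totals this became 0 higher and 13 lower. On that scale the members' median lay 0.046 above that of all genes, and the share of all genes called is not given here. A replicate block on the deposited scale gave more member calls, as given in the closing section. Uqcr11 was the clearest, running from 122 to 171 FPKM (median 134) in stimulated cells at 40 °C and from 99.6 to 132 FPKM (median 121) at 37 °C (log2 0.23, SE 0.0588, adjusted p = 0.00304). Ndufs1, the largest core subunit, ran from 30.6 to 41.6 FPKM (median 36.0) against 32.8 to 52.1 FPKM (median 41.5), a log2 change of -0.21 (SE 0.0664, adjusted p = 0.0153). The other calls were Atp5g1 (0.17), Atp5e, the epsilon subunit (0.16), and Ndufb11 (0.13), and Atp5e lost its call on leaving out any of 13 of 24 libraries and Ndufb11 any of 6. With equal totals none of the 4 rises was called. No member's change at 40 °C was called different between stimulated and unstimulated cells (background 0.237%), with 2 at an unadjusted p below 0.05.

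At 34 °C, 0 members were called in unstimulated (background 0.366%) or stimulated cells (background 10.6%) in limma, with 0 and 3 at an unadjusted p below 0.05. The difference between the 2 also gave 0 calls (background 0.0494%) and 0 at an unadjusted p below 0.05. For the 52 members with a mean above 20 FPKM, stimulated log2 changes at 34 °C lay between -0.13 and 0.097, and the lowest and highest 95% limits were -0.30 and 0.25.

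The responses to the cytokines were tested against unstimulated cells of the same temperature, which had spent 1 or 3 h less there, so time at temperature and cytokine cannot be told apart. All responses at a temperature share those 3 unstimulated libraries. TNF-α for 1 h gave 0 member calls at 24, 34, 37 and 40 °C in limma, where the backgrounds were 0.168%, 1.72%, 2.99% and 5.37%, and 10, 0, 5 and 1 members had an unadjusted p below 0.05. IL-1β for 1 h gave 0 calls at each temperature (backgrounds 0.0494%, 1.16%, 1.88% and 3.16%), with 4, 0, 2 and 3 members at an unadjusted p below 0.05. Averaged over the 4 temperatures, the 1 h responses again gave 0 calls for TNF-α (background 6.92%, 5 members at an unadjusted p below 0.05) and IL-1β (background 3.94%, 1 member).

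After 3 h the calls were few. TNF-α gave 1 member call at 24 °C (background 2.42%), 0 at 34 °C (12.6%) and 37 °C (14%), each with 4 members at an unadjusted p below 0.05, and 2 at 40 °C (19.3%). Atp5h, subunit d of the ATP synthase stalk, fell at 24 °C from 162, 164 and 159 FPKM to 131, 124 and 123 FPKM, without overlap (log2 -0.36, SE 0.0696, adjusted p = 0.000774). Its values at 34, 37 and 40 °C were 0.0023, -0.021 and -0.016. With equal totals the 24 °C change was -0.25 and was not called. Atp5c1, the rotating gamma subunit, fell at 40 °C from 88.7, 104 and 92.1 FPKM to 78.1, 83.4 and 71.8 FPKM (log2 -0.28, SE 0.0795, adjusted p = 0.00769). That call was lost without unstimulated replicate 2 or TNF-α 3 h replicate 3 at 40 °C.

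Ndufaf4 rose at 40 °C with both cytokines after 3 h. Unstimulated cells held 9.00, 7.56 and 9.57 FPKM, cells with TNF-α 14.5, 14.9 and 15.7 FPKM and cells with IL-1β 11.5, 16.2 and 14.6 FPKM. Neither stimulated group overlapped the unstimulated cells, and the log2 changes were 0.73 (SE 0.177, adjusted p = 0.00189) and 0.63 (SE 0.177, adjusted p = 0.0151 in limma). The latter was lost without unstimulated replicate 2 or IL-1β 3 h replicate 2 or 3. At 24 °C the TNF-α libraries stood at 6.91, 7.80 and 9.17 FPKM, below the unstimulated 9.48, 12.7 and 13.1 FPKM, a log2 value of -0.50 that was not called (adjusted p = 0.145). IL-1β after 3 h gave 0 other single-temperature calls: 0 at 24 °C (background 1.42%), 34 °C (5.28%) and 37 °C (4.35%) in limma, each with 2 members at an unadjusted p below 0.05, and Ndufaf4 alone at 40 °C (8.65%).

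Averaged over 4 temperatures, after TNF-α for 3 h, 3 members were lower (background 28.4% called), namely Ndufb3 at -0.32 (SE 0.0833, adjusted p = 0.00283), Cox6a1 at -0.14 (adjusted p = 0.0332) and Atp5h at -0.10 (adjusted p = 0.0283, limma). Cox6a1 lost its call on leaving out any of 7 of 24 libraries and Atp5h any of 4, and with median-of-ratios scaling neither was called. After IL-1β for 3 h, 2 were higher (background 12.7%), Ndufaf4 at 0.26 (adjusted p = 0.0419) and Sdhd at 0.12 (adjusted p = 0.0363), and each lost its call on leaving out any of 12 of 24 libraries. With equal totals neither was called.

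The cytokines were also compared with each other at equal times, where both arms had spent the same hours at temperature. At 1 h 0 members were called in limma (background 0.524%), with 1 at an unadjusted p below 0.05. At 3 h, 2 were lower with TNF-α than with IL-1β (background 9.57%). Ndufb3 stood at 13.0, 6.503, 7.12 and 5.94 FPKM with TNF-α at 24, 34, 37 and 40 °C (means of 3) and at 14.6, 8.45, 9.67 and 9.35 FPKM with IL-1β. It was thus lower at all 4 temperatures, with an averaged log2 difference of -0.37 (SE 0.0833, adjusted p = 0.00118). Atp5c1 differed by -0.13 (SE 0.0398, adjusted p = 0.0238) and lost its call on leaving out any of 6 of 24 libraries, with equal totals and with median-of-ratios scaling.

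**Figure D5:**
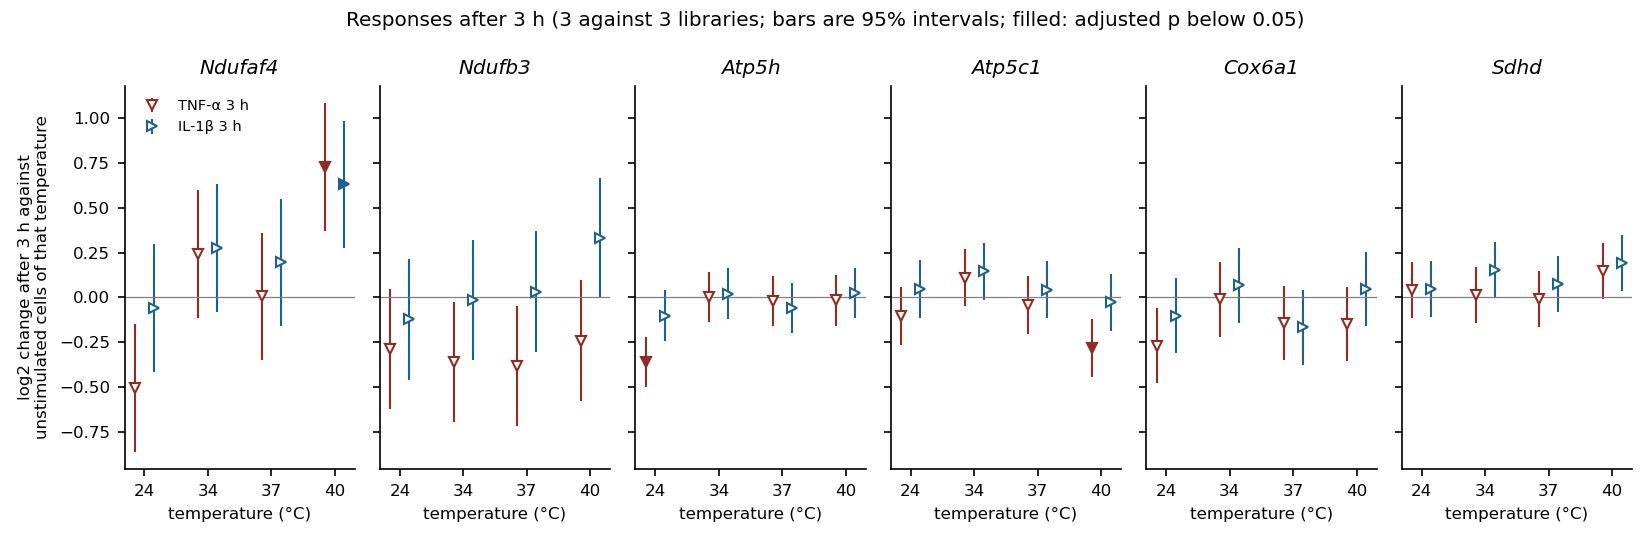
Log2 change after 3 h of TNF-α or IL-1β against unstimulated cells of the same temperature (vertical axis) at 24, 34, 37 and 40 °C (horizontal axes) for the 6 genes with a call in a 3 h response or between cytokines. Bars are 95% intervals from 3 against 3 libraries, and filled symbols were called. Ndufaf4 is above 0 at 40 °C with both cytokines and Ndufb3 lies below 0 with TNF-α at every temperature, on the deposited scale.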

How the data were processed

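Total RNA of 60 dishes was sequenced, and the authors deposited 1 table of FPKM values (fragments per kilobase of transcript, scaled to sequencing depth) for 10122 genes. Per the submitters' processing notes, edgeR, RSEM 1.3.3, STAR 2.7.11b and the build GRCm39 were involved, with no order or role given. Identifiers match GENCODE M21, which was used for lengths and GC. Counts were not used here, and sequencing depth was inferred from step sizes among the low values of 581 genes.

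Values were analysed as log2(FPKM + 1), so changes of low genes are understated. A filter (FPKM of at least 1 in 3 libraries) removed 0 genes. limma 3.58.1 (R 4.3.3) fitted 1 mean per group to all 60 libraries with a variance trend, tested on simulated data, with 31 comparisons. Tests are two-sided and adjusted by Benjamini-Hochberg over 10122 genes within each comparison, and "called" means an adjusted p below 0.05. Stimulated comparisons average 4 groups a temperature. Named are the 6 largest called rises and falls of each temperature comparison and averaged response, 3 of each other comparison, the highest and lowest gene of each complex and listed isoforms; other genes were named after their values were seen. The counts include 1 member whose own values are not reported here. The members and lists were chosen with earlier results of these data known. Alternatives changed the pseudocount, filter, scaling, block, libraries and length and GC.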

Additional observations from a re-analysis of the deposited data

Results flagged for a closer look

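Of the results above, 2 differed between the cytokines by a direct test after 3 h, averaged over 4 temperatures and 12 against 12 libraries in limma. Ndufb3 differed by -0.37 on the log2 scale (adjusted p = 0.00118), with a lower group mean under TNF-α than under IL-1β at all 4 temperatures. Atp5c1 differed by -0.13 (adjusted p = 0.0238). The Atp5c1 difference was no longer called with median-of-ratios scaling (-0.10) or with equal totals (-0.13).

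The log2 values of Ndufaf4 with TNF-α after 3 h had opposite signs at 24 and 40 °C, and only the rise at 40 °C was called. At 24 °C every TNF-α library lay below every unstimulated library (log2 -0.50, not called), and at 40 °C every TNF-α library lay above (log2 0.73, called). This difference between temperatures was not tested.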

How the results depend on the processing

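Counts of members called are given below as higher and lower together. Matching counts over all genes are given only for some alternatives in unstimulated cells at 24 °C. With equal totals they were 14 and 31 in unstimulated and stimulated cells at 24 °C, 1 in stimulated cells at 34 °C, 13 in stimulated cells at 40 °C and 1 for the difference between stimulated and unstimulated cells at 24 °C. Under the same scaling, TNF-α after 1 h gave 1 at 40 °C, TNF-α after 3 h gave 0 at 24 °C, 1 at 37 °C, 4 at 40 °C and 6 averaged, and IL-1β after 3 h averaged gave 0. Totals without 5 noncoding RNAs, added after seeing the data, gave 1 for TNF-α after 3 h at 37 °C and 0 for IL-1β after 3 h averaged. Median-of-ratios scaling gave 1 each for stimulated cells at 34 °C, TNF-α after 3 h at 34 °C, TNF-α after 3 h averaged, and TNF-α against IL-1β at 3 h. A mean of at least 5 FPKM gave 1 for TNF-α after 3 h at 37 °C. Fitting only the groups compared gave 12 in unstimulated cells at 24 °C, 1 for TNF-α after 3 h at 40 °C, 0 for IL-1β after 3 h at 40 °C and 1 for it averaged. The correction for length and GC, added after seeing the data, gave 1 each for the difference between stimulated and unstimulated cells at 24 °C, TNF-α after 3 h averaged and IL-1β after 3 h averaged. The cause was not tested for these.

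Replicate numbers were not taken to pair the libraries in the main fit, by a strict rule that asked every same-numbered pair to correlate above 0.1. Failing this rule does not exclude a structure shared by replicates. Deviations of same-numbered libraries correlated at a mean r of 0.036, over 0.1 in 56 of 570 pairs. For differently numbered ones these were -0.018 and 7 of 1140. Deviations within a group cancel out, so the latter mean largely follows from the former and is no separate evidence. Of 60 libraries, 52 correlated best with their own number, a hint from the data and not from the design. The replicate block moved stimulated cells at 40 °C to 9 and TNF-α after 3 h at 24 °C to 2 calls. Together with length and GC it gave 10 and 2, and 1 each for the difference at 24 °C, TNF-α after 3 h at 37 °C and IL-1β after 3 h averaged. At 24 °C the block itself kept all 23 unstimulated and 47 stimulated calls.

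Leaving out a library, or a replicate number in all groups, gave 12 to 21 in unstimulated and 39 to 48 in stimulated cells at 24 °C, 0 to 1 in stimulated cells at 34 °C and 3 to 7 at 40 °C. TNF-α after 1 h gave 0 to 1 at 37 °C and 0 to 2 at 40 °C. TNF-α after 3 h gave 0 to 2 at 24 °C, 0 to 2 at 37 °C, 0 to 3 at 40 °C and 0 to 4 averaged. IL-1β after 3 h gave 0 to 1 at 40 °C and 0 to 2 averaged, and the cytokines at 3 h differed for 0 to 4. No other count moved by over 1.5 times. Over the alternatives, the 33 called changes named by rule kept their call 368 times and lost it 93 times, with 0 reversed. Atp5a1 in stimulated cells at 24 °C, named after its values were seen, was called lower (-0.10) with equal totals. Over all genes, calls in unstimulated cells at 24 °C numbered 2098, against 724 with only the groups compared, 4108 with equal totals and 1110 to 1307 without a replicate number. An alternative without the filter equals the main result. Genes of a few FPKM rest on few reads, most of all at 24 °C, and their values are coarse.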
